A study of Mus musculus with 8 samples.

Results

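The IL-10 and IL-6 family genes described here are 4 cytokines, Il10, Il24, Il6 and Lif, and 4 receptor chains, Il10ra, Il10rb, Il6ra and Il6st. They were chosen by name as cytokines that act through STAT3 and chains of their receptors, and all 8 are among the 22075 genes measured. RNA levels were measured in cultures of ILC2s, the group 2 subset of innate lymphoid cells, which lack antigen receptors and secrete type 2 cytokines. The cells came from lungs of C57BL/6 mice that had briefly been exposed to papain. The 4 groups of 2 libraries each were STAT3-KO with IL-33, WT with IL-33, STAT3-KO control and WT control. STAT3-KO cells came from VavicreStat3fl/fl mice, in which a Vav-driven recombinase acts in blood cells, and WT cells came from Stat3fl/fl mice without the recombinase. Both genotypes carry the floxed Stat3 gene, so the loss of STAT3 and the presence of the recombinase cannot be told apart. IL-2 at 10 ng/ml expanded all cells over about 5 days, and the IL-33 groups then received 10 ng/ml IL-33 for 2 days. The labels do not describe the medium of the controls in those days, nor the age or sex of the mice. They also do not say whether replicates came from separate mice or cultures, so p-values measure the spread between these libraries, which may be technical.

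The libraries held 15843725 to 19905460 reads, recovered from the steps of the deposited values, and Pearson's r between the replicates of a group was 0.971 to 0.983 over genes. Levels are in FPKM (fragments per kilobase of transcript at a common library depth), given for library 1 and then library 2 of a group, and group means carry an SD with n = 2. Stat3 stood at 8.03 and 9.69 FPKM in STAT3-KO with IL-33, against 49.0 and 55.3 FPKM in WT with IL-33. In the controls it stood at 15.3 and 16.0 FPKM in STAT3-KO, against 41.7 and 50.7 FPKM in WT, so no STAT3-KO library overlapped a WT library, although a level over the whole gene does not show the deleted exons. All 12 markers fixed for ILC2s passed the filter on low values, and Gata3, the factor that defines the lineage, lay between 171.2 and 516.2 FPKM. The summed FPKM of these markers was 3813 to 4182 in STAT3-KO with IL-33, 10500 to 11280 in WT with IL-33, 3587 to 3612 in STAT3-KO control and 3688 to 3799 in WT control. The cytokine Il5 led the sum in WT with IL-33, at 3602 and 3398 FPKM, against 38.5 and 36.0 FPKM in WT control. Il13 stood at 2021 and 2783 FPKM and at 30.6 and 37.9 FPKM in those groups. Gata3 was lower in WT with IL-33, at 277.7 and 292.2 FPKM, than in WT control, at 463.5 and 454.1 FPKM, and so was Il7r. With IL-33, Il1rl1, the IL-33 receptor, stood at 78.5 and 92.4 FPKM in STAT3-KO and at 350.1 and 369.5 FPKM in WT, and Thy1, a surface marker, at 2.56 and 2.37 FPKM in STAT3-KO and at 31.7 and 38.0 FPKM in WT. Most other markers were also lower in STAT3-KO with IL-33, but Icos, Areg and Rora were not. Icos gave 105.5 and 115.2 FPKM in STAT3-KO and 102.1 and 84.85 FPKM in WT with IL-33, and the genotypes overlapped for Areg and Rora. The part of these differences in the cytokine and receptor values was not tested. Changes are on the log2(FPKM + 1) scale, followed by limma's standard error (SE), with p adjusted over the 11877 genes with at least 1 FPKM in at least 2 libraries, and a gene was called at an adjusted p under 0.05. The 5 comparisons share libraries, so their values are given side by side and are not independent of each other.

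IL-10 is a cytokine that dampens immune responses. It binds a receptor of a ligand-binding chain, IL-10RA, and a shared chain, IL-10RB, and the kinases JAK1 and TYK2 then activate STAT3. IL-24, an IL-10 relative, signals through receptors built on IL-20RB, whereas IL-6 and LIF use their own binding chains (IL-6RA and LIFR) with the common signalling chain encoded by Il6st. STAT3 in turn induces SOCS3, an inhibitor that acts on the common chain of the IL-6 family. In the lung, IL-33 released by damaged epithelium activates ILC2s, and activated ILC2s are a known source of IL-10.

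The 8 genes fell into distinct patterns. Il10 and Il24 were nearly silent in the controls and rose with IL-33 in both genotypes, to lower levels in STAT3-KO cells. Il6 and Lif were higher in STAT3-KO than in WT cells under IL-33. Il10ra was higher in STAT3-KO cells with and without IL-33 and rose with IL-33 in both genotypes, whereas Il10rb fell with IL-33 to about the same level in both. Il6ra and Il6st never reached 1 FPKM. With IL-33 in STAT3-KO cells, 5 of the 8 genes were called higher and 1 lower, and 2 were not tested. Of all tested genes, 51% were called in that comparison, 20.4% higher and 30.6% lower. In WT cells, 3 were called higher and 2 lower, beside 36.1% of all tested genes, 14.5% higher and 21.6% lower. For STAT3-KO against WT with IL-33, 3 were called higher and 2 lower, beside 32.6% of all tested genes, 16.3% higher and 16.4% lower. For STAT3-KO against WT in the controls, 1 was called, Il10ra, beside 0.463% of all tested genes, 0.253% higher and 0.21% lower. Between the genotypes, the response to IL-33 itself was called as different for 3 of the 8, 1 higher and 2 lower, beside 15.1% of all tested genes, 6.72% higher and 8.43% lower. The counts are of 8 genes, 2 of them not tested, whereas the shares cover tested genes only. With such large shares called under IL-33, a call there was common. Whether these genes were called more often than the rest was not tested.

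**Figure D1:**
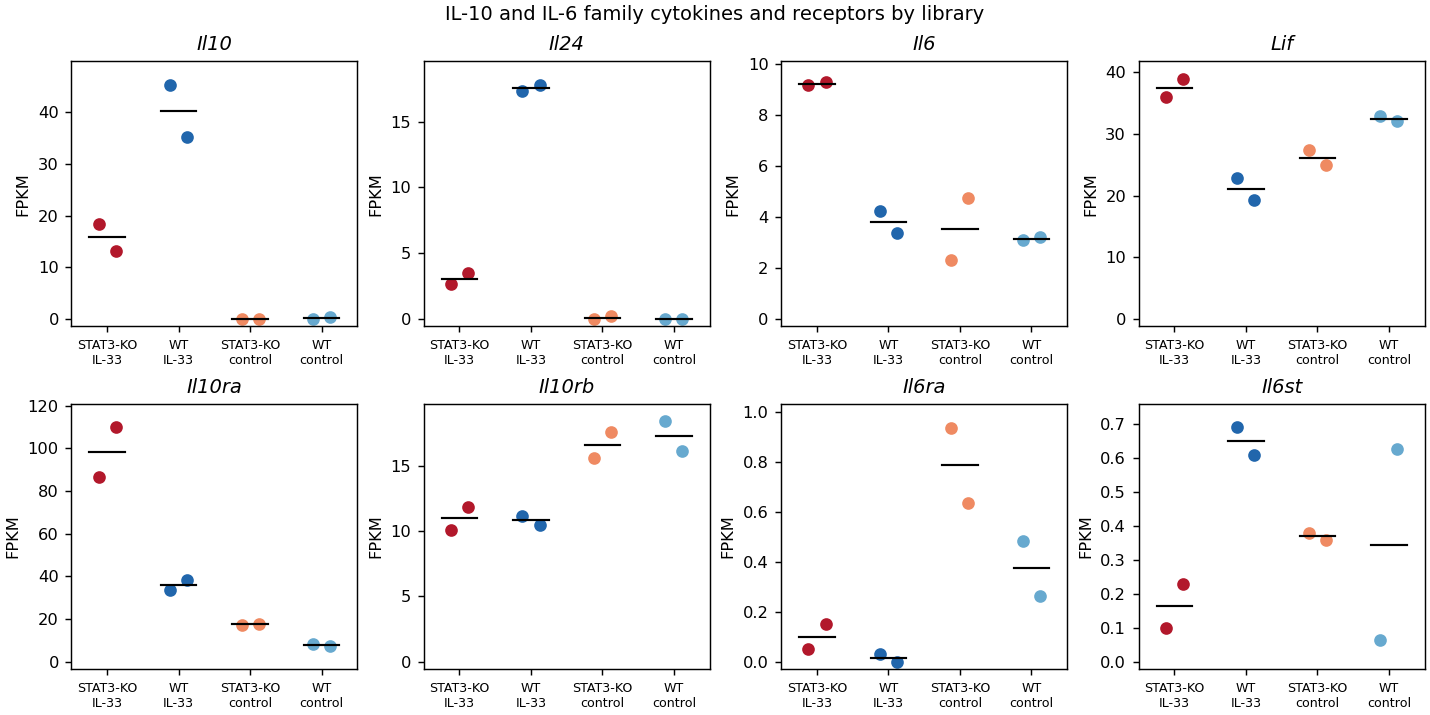
FPKM (vertical axes, from 0, each panel with its own range) of the 8 genes in every library. Points are the 2 libraries of a group and bars are group means. Il10 and Il24 lie at or close to 0 in all 4 control libraries, and Il10ra reached 86.6 and 110.1 FPKM in STAT3-KO with IL-33.

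Il10 (ENSMUSG00000016529) lies on the forward strand of chromosome 1, at 131019845 to 131024974 (GRCm38). Its level was 18.4 and 13.2 FPKM in STAT3-KO with IL-33 and 45.3 and 35.2 FPKM in WT with IL-33. It was listed at 0 in both STAT3-KO control libraries and in 1 WT control library, and the other WT control library gave 0.289 FPKM, from 6 reads. The 3 libraries at 0 lay under the 0.115 to 0.145 FPKM that 3 reads of this gene amount to, a limit that covers counting error alone. The IL-33 groups did not overlap each other or the controls, and the controls overlapped.

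IL-33 raised Il10 by 4.05 ± 0.23 (SE) in STAT3-KO cells (adjusted p = 4.95e-06) and by 5.17 ± 0.23 in WT cells (adjusted p = 2.71e-06). Because the controls were at or near 0, these values depend on the constant added before the logarithm, and with 0.1 in place of 1 they were 7.29 in STAT3-KO and 7.66 in WT. With IL-33, Il10 averaged 15.8 ± 3.62 FPKM in STAT3-KO and 40.2 ± 7.09 FPKM in WT, a level 2.55-fold lower in STAT3-KO. The difference was -1.30 ± 0.23 on the log2 scale (adjusted p = 0.00319), and it stayed in the same direction with a constant of 0.1, at -1.35, where the adjusted p was 0.111. In the controls the difference was -0.18 ± 0.23 (adjusted p = 0.901). The response to IL-33 was smaller in STAT3-KO by 1.12 ± 0.32 on the log2 scale (adjusted p = 0.049). That call was lost in 12 of the 16 alternatives tried, with a range of -1.34 to -0.37, including a constant of 0.5 (adjusted p = 0.129) and the omission of any 1 library other than WT control library 2.

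Il24 (ENSMUSG00000026420), a cytokine of the same family, lies on the reverse strand of chromosome 1 at 130882074 to 130887454. It reached 2.66 and 3.49 FPKM in STAT3-KO with IL-33 and 17.4 and 17.8 FPKM in WT with IL-33. It was listed at 0 in both WT control libraries and in 1 STAT3-KO control library, and the other STAT3-KO control library gave 0.225 FPKM, from 5 reads. As for Il10, the IL-33 groups stood apart from each other and from the overlapping controls.

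The rise of Il24 with IL-33 was 1.87 ± 0.20 in STAT3-KO cells (adjusted p = 0.000166) and 4.21 ± 0.20 in WT cells (adjusted p = 3.96e-06), or 4.13 in STAT3-KO and 7.46 in WT with a constant of 0.1. With IL-33, the mean was 3.07 ± 0.59 FPKM in STAT3-KO and 17.6 ± 0.29 FPKM in WT, which is 5.72-fold lower in STAT3-KO (log2 difference -2.20 ± 0.20, adjusted p = 0.000163). The response differed between the genotypes by -2.34 ± 0.29 (adjusted p = 0.0022), and that call held in all 16 alternatives, between -3.34 and -2.19. Both Il10 and Il24 passed the filter on low values through their IL-33 libraries alone. The ratio of Il10 to Il24 FPKM was 6.91 and 3.79 in STAT3-KO with IL-33 and 2.61 and 1.98 in WT with IL-33, so Il24 was lower relative to Il10 in both STAT3-KO libraries. In bulk libraries, a lower level can come from fewer cells that make a transcript or from less transcript per cell, and these cannot be told apart.

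The starts of Il24 and Il10 lie 132391 bases apart in a cluster of IL-10 family genes, which the annotation shows between Fcmr and Mapkapk2. The neighbours were taken by position, after the data had been seen. They came from all 12 annotated genes of the table within 250 kb of Il10, a count that includes Il10 itself. Il19, the family member between Il24 and Il10, gave 1.17 FPKM in 1 STAT3-KO library with IL-33 and was listed at 0 in the other. In WT with IL-33 it gave 0.0874 and 0.802 FPKM, and it was listed at 0 in all 4 control libraries, so it was not tested. Mapkapk2, which encodes a kinase downstream of p38 and lies on the other side of Il10, averaged 32.4 FPKM in STAT3-KO with IL-33, 27.7 FPKM in WT with IL-33, 12.3 FPKM in STAT3-KO control and 14.3 FPKM in WT control. It rose with IL-33 by 1.35 ± 0.19 in STAT3-KO (adjusted p = 0.000704) and by 0.92 ± 0.19 in WT (adjusted p = 0.00731), while the genotypes with IL-33 differed by 0.22 ± 0.19 (adjusted p = 0.429). Rassf5, a Ras-binding adaptor farther along, fell with IL-33 by 1.28 ± 0.12 in STAT3-KO (adjusted p = 6.57e-05) and by 0.52 ± 0.12 in WT (adjusted p = 0.00984). With IL-33, Rassf5 averaged 65.6 FPKM in STAT3-KO and 119.9 FPKM in WT (-0.87 ± 0.12, adjusted p = 0.000994). Eif2d, which starts between Mapkapk2 and Rassf5, was higher in STAT3-KO than in WT with IL-33 (0.38 ± 0.11, adjusted p = 0.0343).

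**Figure D2:**
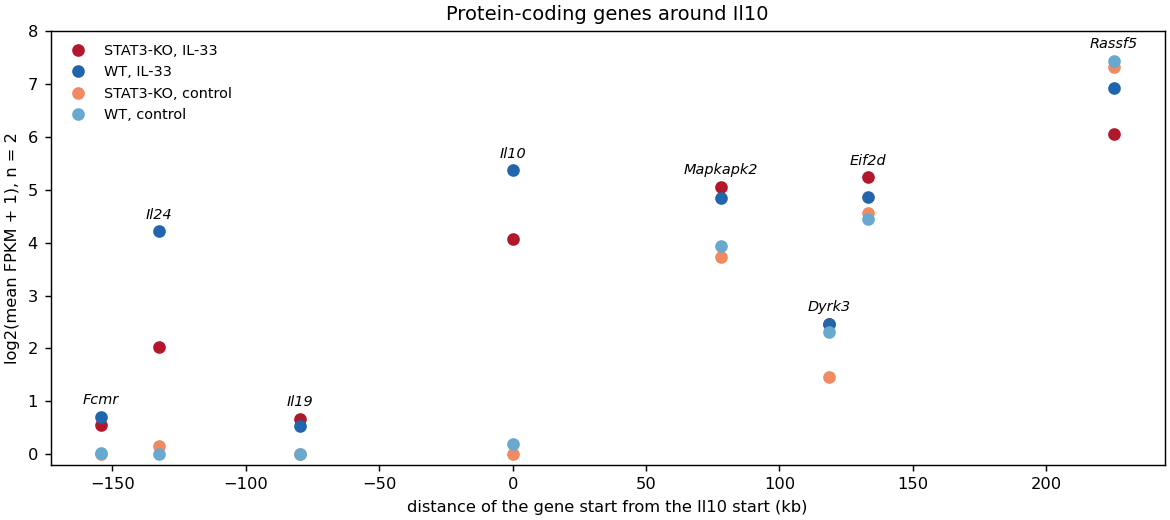
Level of each protein-coding gene within 250 kb of Il10, as log2 of the group mean FPKM + 1 (vertical axis, n = 2 libraries a group), against the distance of its start from that of Il10 in kb (horizontal axis). Points are group means. Of the genes called between the genotypes with IL-33, Il24, Il10 and Rassf5 lie higher in WT, and Eif2d lies higher in STAT3-KO. With IL-33, Mapkapk2 is also higher in STAT3-KO, at 27.7 FPKM in WT and 32.4 FPKM in STAT3-KO, a difference that was not called.

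For Il6 and Lif, the RefSeq promoter windows (GRCm38.p6, 250 bases before the RefSeq start) are shown because both genes were higher in STAT3-KO than in WT cells under IL-33. Capitals mark matches to the motifs searched, and the sequences read 5′ to 3′ on the forward strand.

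Il6 promoter, chr5:30012864-30013113: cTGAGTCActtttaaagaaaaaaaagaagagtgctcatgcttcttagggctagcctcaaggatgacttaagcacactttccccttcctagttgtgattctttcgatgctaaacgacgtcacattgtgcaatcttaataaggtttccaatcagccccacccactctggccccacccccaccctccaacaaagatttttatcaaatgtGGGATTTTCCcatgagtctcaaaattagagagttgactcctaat

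Lif promoter, chr11:4257318-4257567: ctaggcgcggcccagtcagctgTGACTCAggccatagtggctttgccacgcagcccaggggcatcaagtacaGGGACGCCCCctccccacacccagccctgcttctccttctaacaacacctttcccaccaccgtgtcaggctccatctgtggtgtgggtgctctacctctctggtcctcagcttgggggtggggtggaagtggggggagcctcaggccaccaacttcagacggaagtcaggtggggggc

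The motifs were searched on both strands as TTCNNNGAA for STAT factors, TGANTCA for AP-1 and the usual degenerate consensus for NF-kB, and no matches of different motifs overlapped in these windows. The Il6 window held an NF-kB match at -44 to -35 and an AP-1 match at -249 to -243, counted in bases from the start. The Lif window held an NF-kB match at -178 to -169 and an AP-1 match at -228 to -222. Of 32851 RefSeq promoters, 7.02% held the STAT letters, 7.25% the NF-kB consensus and 6.75% the AP-1 letters in windows of the same length. Of the 8 genes, 4 had a promoter entry (Il6, Lif, Il6ra and Il6st), and 0 of these held the STAT letters. Such matches describe letters only, in a window that leaves out all distal sites.

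Il6 (ENSMUSG00000025746, chromosome 5, 30013114 to 30019981, forward strand) encodes an inflammatory cytokine that drives acute-phase and lymphocyte responses. It stood at 9.17 and 9.27 FPKM in STAT3-KO with IL-33 and at 4.24 and 3.37 FPKM in WT with IL-33. The controls gave 2.33 and 4.75 FPKM in STAT3-KO and 3.09 and 3.20 FPKM in WT. Both STAT3-KO libraries with IL-33 lay above all 6 others, and the STAT3-KO controls spanned the range of both WT groups.

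With IL-33, Il6 was 2.42-fold higher in STAT3-KO than in WT (log2 difference 1.10 ± 0.25, adjusted p = 0.012). That call was lost without either STAT3-KO library with IL-33 (adjusted p = 0.0551 and 0.0515) or without WT library 2 with IL-33 (0.96, adjusted p = 0.084), each at nearly the same size. IL-33 raised Il6 2.61-fold in STAT3-KO cells (1.22 ± 0.25, adjusted p = 0.00447). In WT cells the change was 0.21 ± 0.25 (adjusted p = 0.55), with a 95% interval of -0.37 to 0.79. The difference between these responses, 1.02 ± 0.36, did not pass the threshold (adjusted p = 0.0918), and it passed without STAT3-KO control library 2, the higher of that group, at 1.41 (adjusted p = 0.0324). In the controls the genotypes differed by 0.08 ± 0.25 (adjusted p = 0.98), and the value was -0.32 without that same library.

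Lif (ENSMUSG00000034394, chromosome 11, 4257557 to 4272514, forward strand) encodes leukaemia inhibitory factor, a cytokine of the IL-6 family known from stem cell culture and tissue repair. It gave 35.9 and 38.8 FPKM in STAT3-KO with IL-33 and 22.9 and 19.3 FPKM in WT with IL-33. In the controls it gave 27.3 and 24.9 FPKM in STAT3-KO and 32.8 and 32.0 FPKM in WT. The 4 groups did not overlap, with STAT3-KO with IL-33 the highest and WT with IL-33 the lowest.

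IL-33 therefore moved Lif in opposite directions. It rose 1.43-fold in STAT3-KO cells (0.50 ± 0.13, adjusted p = 0.0105) and fell in WT cells, where it was 1.54-fold lower with IL-33 (-0.60 ± 0.13, adjusted p = 0.0067). The difference between the responses was 1.10 ± 0.18 (adjusted p = 0.00627) and was called in all 16 alternatives, between 0.98 and 1.22. The rise in STAT3-KO was not called without STAT3-KO control library 2 (0.44, adjusted p = 0.075), nor the fall in WT without WT library 2 with IL-33 (-0.48, adjusted p = 0.0524). With IL-33, Lif was 1.77-fold higher in STAT3-KO than in WT (0.80 ± 0.13, adjusted p = 0.00195), and in the controls the difference was -0.30 ± 0.13 (adjusted p = 0.507). Lif was the more abundant of the 2 IL-6 family cytokines in every library. The ratio of Lif to Il6 FPKM was 3.92 and 4.19 in STAT3-KO with IL-33, 5.40 and 5.72 in WT with IL-33, 11.7 and 5.25 in STAT3-KO control and 10.6 and 10.0 in WT control.

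Il10ra (ENSMUSG00000032089, chromosome 9, 45253837 to 45269149, reverse strand) encodes the chain that gives the IL-10 receptor its specificity. It reached 86.6 and 110.1 FPKM in STAT3-KO with IL-33 and 33.3 and 38.3 FPKM in WT with IL-33. The controls stood at 17.3 and 17.7 FPKM in STAT3-KO and at 8.08 and 7.40 FPKM in WT. No groups overlapped, and in STAT3-KO with IL-33 the mean of Il10ra exceeded that of 97.0% of the genes in the table, against 76.4% in WT control.

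IL-33 raised Il10ra 5.62-fold in STAT3-KO cells (2.41 ± 0.14, adjusted p = 6.78e-06) and 4.63-fold in WT cells (2.07 ± 0.14, adjusted p = 2.61e-05). The responses differed by 0.34 ± 0.20 (adjusted p = 0.286), with a 95% interval of -0.13 to 0.81. STAT3-KO cells held 2.75-fold more than WT cells with IL-33 (adjusted p = 0.000243) and 2.26-fold more in the controls (1.08 ± 0.14, adjusted p = 0.0204). The call in the controls was lost in 9 of 17 alternatives, with adjusted p between 0.0141 and 0.206 at sizes of 1.03 to 1.17. It was lost without any 1 of the 4 control libraries, and also without WT library 1 or 2 with IL-33, which enter the estimate of the spread. The genotype difference thus kept its size in the controls, where limma called 55 genes in all and 1106 had an unadjusted p under 0.05.

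Il10rb (ENSMUSG00000022969, chromosome 16, 91406164 to 91425834, forward strand) encodes the receptor chain that IL-10 shares with IL-22 and the lambda interferons. It gave 10.1 and 11.9 FPKM in STAT3-KO with IL-33 and 11.2 and 10.5 FPKM in WT with IL-33. The controls gave 15.6 and 17.7 FPKM in STAT3-KO and 18.5 and 16.1 FPKM in WT. The genotypes overlapped under both treatments, and every library with IL-33 lay below every control library.

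With IL-33, Il10rb was 1.51-fold lower in STAT3-KO cells (-0.55 ± 0.14, adjusted p = 0.0128) and 1.59-fold lower in WT cells (-0.63 ± 0.14, adjusted p = 0.0109). The median of all tested genes also moved, by -0.18 in STAT3-KO and -0.14 in WT. After rescaling to a median near 0, the fall of Il10rb in STAT3-KO was -0.35 (adjusted p = 0.0808). It also missed the threshold in STAT3-KO without control library 2 (-0.47, adjusted p = 0.0903) or without library 1 with IL-33 (-0.45, adjusted p = 0.0688). In WT cells the call was lost without control library 1 (adjusted p = 0.0597) or without library 2 with IL-33 (adjusted p = 0.0661). The genotypes differed by 0.02 ± 0.14 with IL-33 (95% interval -0.31 to 0.35) and by -0.05 ± 0.14 in the controls (-0.38 to 0.28), and adjusted p was 0.944 and 0.971.

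Since both chains are needed for IL-10 signalling, their ratio was taken per library. Il10ra FPKM divided by Il10rb FPKM was 8.55 and 9.24 in STAT3-KO with IL-33 and 2.98 and 3.65 in WT with IL-33. In the controls it was 1.11 and 1.00 in STAT3-KO and 0.438 and 0.458 in WT. The 4 groups did not overlap in this ratio. Il10ra exceeded Il10rb in all 4 libraries with IL-33, was about level with it in STAT3-KO control and lay below it in WT control.

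Il6ra (ENSMUSG00000027947, chromosome 3, 89864059 to 89913196, reverse strand) encodes the chain that binds IL-6. It gave 0.0497 and 0.150 FPKM in STAT3-KO with IL-33, from 7 and 23 reads, and 0.0291 FPKM in 1 WT library with IL-33, from 5 reads, the other being at 0. The controls gave 0.936 and 0.635 FPKM in STAT3-KO, from 136 and 88 reads, and 0.483 and 0.263 FPKM in WT, from 70 and 36 reads. The groups did not overlap, and both groups with IL-33 lay below both controls. The gene failed the filter, and in a fit without any filter IL-33 lowered it in STAT3-KO by 0.70 ± 0.13 on the log2 scale (adjusted p = 0.012). The change in WT was -0.43 ± 0.13 in that fit (adjusted p = 0.0788), and with a constant of 1 these values understate the change of so low a gene, whose mean was 7.87-fold lower with IL-33 in STAT3-KO.

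Il6st (ENSMUSG00000021756, chromosome 13, 112464070 to 112510086, forward strand) encodes the signalling chain common to the receptors of IL-6 and LIF. It gave 0.0995 and 0.228 FPKM in STAT3-KO with IL-33 and 0.693 and 0.609 FPKM in WT with IL-33. The controls gave 0.380 and 0.359 FPKM in STAT3-KO and 0.0644 and 0.626 FPKM in WT, so the WT control libraries alone spanned most of the range. The gene failed the filter too, and no comparison called it in the fit without one, where STAT3-KO against WT with IL-33 gave -0.51 ± 0.20 (adjusted p = 0.173). Both chains of the IL-6 receptor were thus detected by at most 153 reads a library, whereas the cytokine Il6 was above 2 FPKM in all 8.

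Il6ra and Il6st have long transcripts, with 8642 and 11099 bases of merged exons. In STAT3-KO cells the change with IL-33 moved with gene length, with a median of 0.00 among the 2967 shortest tested genes, up to 2065 bases, and -0.47 among the 2967 longest, from 6095 bases. In WT cells these medians were -0.07 for the shortest and -0.18 for the longest. The part of this trend in the low values of Il6ra under IL-33, and of Il6st in STAT3-KO with IL-33, was not tested. For the 6 tested genes every call in the 5 comparisons was kept when the trend with length was removed, an alternative chosen after seeing the data, whereas the change of Stat3 itself with IL-33 in STAT3-KO was then -0.29 (adjusted p = 0.0775), against -0.76 (adjusted p = 0.00305) with the trend in place.

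**Figure D3:**
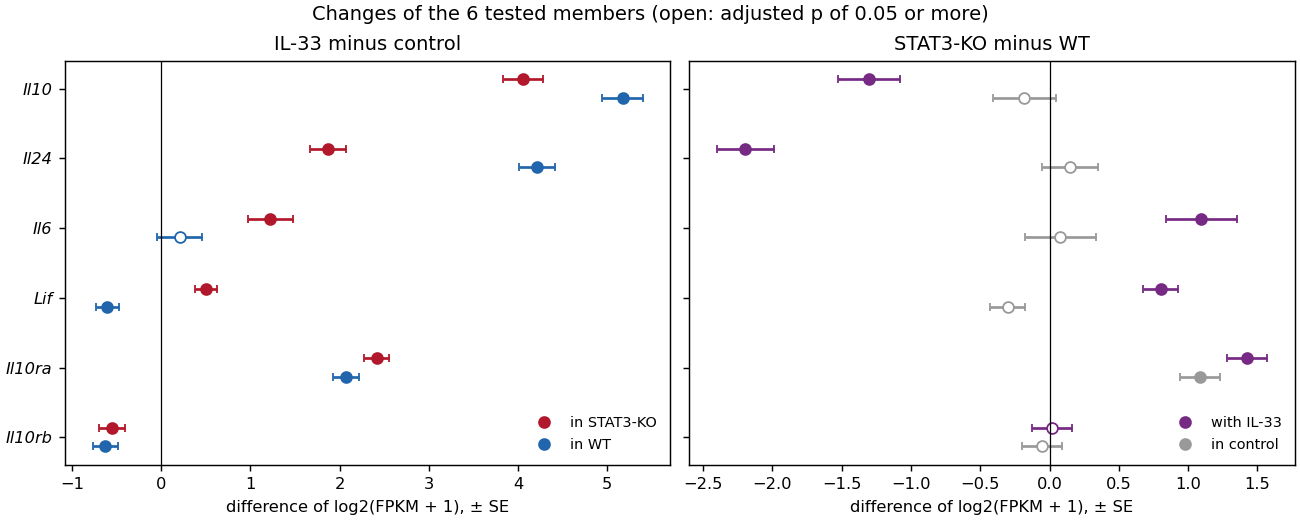
Changes of the 6 tested genes as differences of log2(FPKM + 1), with bars of ± 1 SE from limma. The left panel gives IL-33 minus control in STAT3-KO and in WT, the right panel STAT3-KO minus WT with IL-33 and in control, and open points had an adjusted p of at least 0.05. Lif moved to opposite sides of 0 with IL-33, at 0.50 in STAT3-KO and -0.60 in WT, and Il10rb lay near 0 between genotypes.

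Each tested gene was set beside the 3 genes whose log2(FPKM + 1) followed it most closely over the 8 libraries, as a description in which 4 groups supply most of the variation. Il10 was closest to Eif2s2, a translation initiation factor subunit (r = 0.997), Ifitm2, an interferon-induced membrane protein (0.995), and Il5, the eosinophil growth factor made by ILC2s (0.995). Il5 averaged 920.7 FPKM in STAT3-KO with IL-33, 3500 FPKM in WT with IL-33, 45.8 FPKM in STAT3-KO control and 37.2 FPKM in WT control. Il24 was closest to Tph1, the enzyme that starts serotonin synthesis outside the brain (0.998), the peptidase gene Prep (0.997) and Smim3 (0.996). Tph1 averaged 9.63 FPKM in STAT3-KO with IL-33, 65.6 FPKM in WT with IL-33, 1.57 FPKM in STAT3-KO control and 0.929 FPKM in WT control.

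Il6 was closest to Nenf (0.982), Metap1 (0.980) and Ccr4, a chemokine receptor of type 2 lymphocytes (0.975). Ccr4 averaged 46.4 FPKM in STAT3-KO with IL-33, 21.1 FPKM in WT with IL-33, 18.2 FPKM in STAT3-KO control and 18.1 FPKM in WT control, with the same single high group as Il6. Lif was closest to Ogfr (0.968), R3hcc1 (0.966) and Cd2bp2 (0.966), the loosest matches of the 6. Il10ra was closest to the stress-response gene Sesn2 (0.998), to Ckmt1, a mitochondrial creatine kinase (0.996), and to Plk2 (0.994). Il10rb was closest to Susd6 (0.989), Hnrnpf (0.988) and Nt5dc1 (0.988).

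The remaining family genes were read from lists of ligands and receptors. Of the 11 other IL-10 family genes listed, 3 were in the table and 0 passed the filter. Il20ra and Il20rb, chains of the IL-24 receptor, reached at most 0.95 and 0.312 FPKM in any library. Of the 16 other IL-6 family genes, 10 were in the table and 5 were tested. Of these 5, IL-33 raised 3 and lowered 2 in STAT3-KO, and raised 2 and lowered 2 in WT, beside 51% of all tested genes called in STAT3-KO and 36.1% in WT. Their median change was 0.70 in STAT3-KO and 0.03 in WT, beside -0.18 and -0.14 for all tested genes. STAT3-KO cells with IL-33 had 1 higher and 2 lower than WT cells (median -0.12, against 0.01 for all tested genes). Of all tested genes, 32.6% were called in that comparison, 0.463% between the controls and 15.1% for the difference between the responses. Between the controls limma called 0, with 1 at an unadjusted p under 0.05, beside 1106 of all 11877 tested genes. The response to IL-33 differed for 3, with 1 higher and 2 lower in STAT3-KO, and for 1 without WT library 2 with IL-33.

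Osm, which encodes oncostatin M, a LIF relative, averaged 137.5 ± 10.3 FPKM in STAT3-KO with IL-33, 243 ± 17.9 FPKM in WT with IL-33, 84.0 ± 5.03 FPKM in STAT3-KO control and 87.3 ± 4.33 FPKM in WT control. It was lower in STAT3-KO than in WT with IL-33 by 0.82 ± 0.11 on the log2 scale (adjusted p = 0.000815), opposite to Lif. Ebi3, a subunit of IL-27 and IL-35, averaged 208.7 ± 41.9 FPKM in STAT3-KO with IL-33, 46.8 ± 3.39 FPKM in WT with IL-33, 29.6 ± 5.86 FPKM in STAT3-KO control and 17.5 ± 3.71 FPKM in WT control. With IL-33 it was higher in STAT3-KO by 2.12 ± 0.20 (adjusted p = 0.000165). Ebi3 rose with IL-33 by 2.78 ± 0.20 in STAT3-KO (adjusted p = 1.79e-05) and by 1.38 ± 0.20 in WT (adjusted p = 0.00115). Il27, which encodes its partner in IL-27, gave 0.901 and 1.21 FPKM in STAT3-KO with IL-33, was listed at 0 in both WT libraries with IL-33 and passed no filter. Il27ra, a chain of the IL-27 receptor that pairs with the Il6st product, was lower in STAT3-KO with IL-33, at 44.8 ± 0.48 FPKM, than in WT with IL-33, at 72.6 ± 2.46 FPKM (-0.68 ± 0.09, adjusted p = 0.00112). Clcf1, which encodes a cytokine of the CNTF receptor, fell with IL-33 by 1.22 ± 0.25 in STAT3-KO (adjusted p = 0.00457) and by 1.47 ± 0.25 in WT (adjusted p = 0.00298). Lifr and Osmr, the binding chains for LIF and oncostatin M, reached at most 0.0691 and 0.0609 FPKM in any library.

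**Figure D4:**
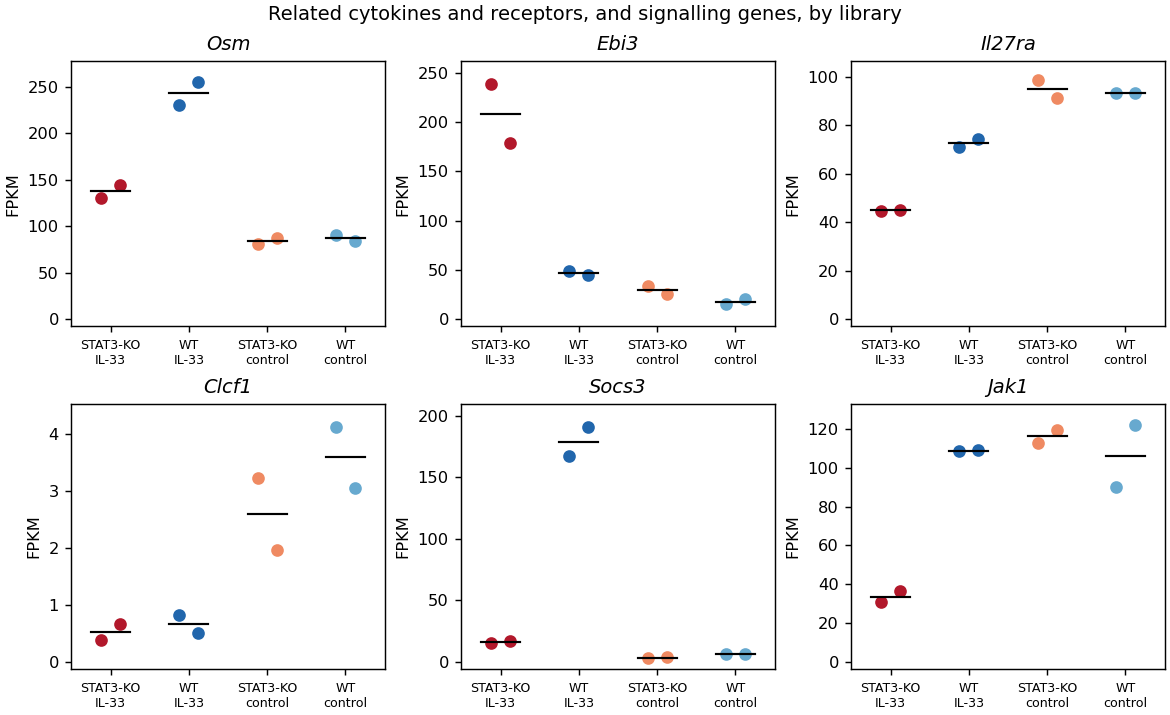
FPKM (vertical axes, each with its own range) of Osm, Ebi3, Il27ra, Clcf1, Socs3 and Jak1 in every library, with bars at group means of 2 libraries. Ebi3 is highest in STAT3-KO with IL-33, at a mean of 208.7 FPKM, and Socs3 in WT with IL-33, at 179 FPKM. Both also rose with IL-33 in the other genotype. Jak1 is low in STAT3-KO with IL-33 alone, at 33.4 FPKM.

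Of 10 other cytokines and receptors that activate STAT3, 2 were tested, Il21r and Il12rb1. Il21r, the IL-21 receptor chain, averaged 82.4 FPKM in STAT3-KO with IL-33, 53.8 FPKM in WT with IL-33, 15.8 FPKM in STAT3-KO control and 15.0 FPKM in WT control. It rose with IL-33 in both genotypes and was higher in STAT3-KO with IL-33 by 0.60 ± 0.12 (adjusted p = 0.00637), the same order as Il10ra under IL-33. Il12rb1, a chain of the IL-12 and IL-23 receptors, was higher in STAT3-KO with IL-33 by 0.85 ± 0.11 (adjusted p = 0.000875). IL-33 lowered it in WT (-0.80 ± 0.11, adjusted p = 0.000994) and raised it in STAT3-KO (0.41 ± 0.11, adjusted p = 0.0148), and the rise was not called without STAT3-KO control library 1 or without STAT3-KO library 1 with IL-33. Both were called in each of those 3 comparisons and 1, Il12rb1, for the difference between the responses. Of all tested genes, 51% were called with IL-33 in STAT3-KO and 36.1% in WT. Between the genotypes with IL-33 the share was 32.6%, and for the difference between the responses 15.1%. Between the controls limma called 0, with 1 at an unadjusted p under 0.05. Of all tested genes, 0.463% were called there, and 1106 of 11877 had an unadjusted p under 0.05.

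All 12 signalling parts of these receptors were tested. With IL-33, 1 rose and 5 fell in STAT3-KO, where 51% of all tested genes were called, and 3 rose and 3 fell in WT, where 36.1% were. STAT3-KO against WT gave 2 higher and 4 lower with IL-33, Stat3 among the lower, and 0 higher and 1 lower, Stat3 itself, in the controls, a call lost without either STAT3-KO control library. Of all tested genes, 32.6% were called with IL-33, 0.463% in the controls and 15.1% for the responses. The median difference with IL-33 was -0.21, against 0.01 for all tested genes, and the responses differed for 2 upwards and 4 downwards, or for 3 in all without WT library 2 with IL-33. Socs3 averaged 15.6 ± 1.12 FPKM in STAT3-KO with IL-33, 179 ± 16.6 FPKM in WT with IL-33, 2.96 ± 0.54 FPKM in STAT3-KO control and 5.87 ± 0.06 FPKM in WT control. It was lower in STAT3-KO with IL-33 by 3.43 ± 0.15 (adjusted p = 4.79e-06), as Il10 and Il24 were. Socs3 rose with IL-33 by 2.08 ± 0.15 in STAT3-KO (adjusted p = 1.61e-05) and by 4.71 ± 0.15 in WT (adjusted p = 4.78e-07). Jak1, a kinase of both the IL-10 and the IL-6 receptors, averaged 33.4 ± 3.93 FPKM in STAT3-KO with IL-33 and 108.9 ± 0.11 FPKM in WT with IL-33 (-1.68 ± 0.15, adjusted p = 0.000131). Ptpn6, a phosphatase that restrains cytokine receptors, was higher in STAT3-KO with IL-33 by 1.26 ± 0.15 (adjusted p = 0.000554).

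Of 15 known STAT3 target genes, 11 were tested. IL-33 raised 7 and lowered 1 in STAT3-KO, and raised 7 and lowered 0 in WT, with medians of 1.29 in STAT3-KO and 1.22 in WT, beside -0.18 and -0.14 for all tested genes, of which 20.4% and 14.5% were called higher. With IL-33, STAT3-KO had 2 higher and 3 lower than WT, with a median of 0.17. Of all tested genes, 32.6% were called there and 15.1% for the difference between the responses. Between the controls limma called 0, with 3 at an unadjusted p under 0.05. Of all tested genes, 0.463% were called there, and 1106 of 11877 had an unadjusted p under 0.05. The lower ones were Socs3, Hif1a and Bcl3, and the higher ones were Bcl2l1, which protects from cell death, and Myc, which drives growth. The responses differed for 2 upwards and 3 downwards, and for 3 in all without either STAT3-KO control library or WT library 1 with IL-33.

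Of 15 transcription factors known to control Il10, 14 were tested. IL-33 raised 5 and lowered 4 in STAT3-KO, and raised 6 and lowered 3 in WT, beside 51% of all tested genes called in STAT3-KO and 36.1% in WT. With IL-33, STAT3-KO had 2 higher and 5 lower than WT (median -0.50, against 0.01 for all tested genes, 32.6% of which were called). The responses differed for 1 upwards and 5 downwards, beside 15.1% of all tested genes. Between the controls limma called 0, with 5 at an unadjusted p under 0.05. Of all tested genes, 0.463% were called there, and 1106 of 11877 had an unadjusted p under 0.05. Prdm1, which encodes Blimp-1, an activator of Il10 in T cells, averaged 2.57 ± 0.18 FPKM in STAT3-KO with IL-33 and 15.2 ± 1.67 FPKM in WT with IL-33 (-2.18 ± 0.31, adjusted p = 0.00126). Ets1, a factor of lymphoid cells, averaged 10.4 ± 1.55 FPKM in STAT3-KO with IL-33 and 72.8 ± 5.83 FPKM in WT with IL-33 (-2.70 ± 0.12, adjusted p = 6.47e-06). Id2, needed for innate lymphoid cells, and Gata3 were also lower, by 1.22 ± 0.08 (adjusted p = 4.15e-05) and 0.72 ± 0.08 (adjusted p = 0.00038). Egr2, among the higher ones, averaged 4.35 ± 0.26 FPKM in STAT3-KO with IL-33 and 0.593 ± 0.353 FPKM in WT with IL-33. Irf4 and Batf, which act together in lymphocytes, rose with IL-33 in both genotypes, Irf4 by 1.81 ± 0.21 in STAT3-KO (adjusted p = 0.000235) and by 1.73 ± 0.21 in WT (adjusted p = 0.000497). With IL-33, Irf4 averaged 50.9 ± 16.3 FPKM in STAT3-KO and 25.6 ± 2.91 FPKM in WT.

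Of 4 genes for proteases that shed IL-6 receptor and their cofactors, 3 were tested. IL-33 raised 0 and lowered 1 in STAT3-KO, beside 30.6% of all tested genes called lower. In WT and between the control groups limma called 0, with 0 at an unadjusted p under 0.05. Of all tested genes, 36.1% were called in WT and 0.463% between the control groups. The count in WT was 1 without WT control library 2. With IL-33, 2 were lower in STAT3-KO than in WT, Adam10 and Rhbdf2, beside 16.4% of all tested genes. Adam10 alone was called for the difference between the responses, beside 15.1% of all tested genes. Adam10 averaged 4.41 ± 1.73 FPKM in STAT3-KO with IL-33 and 31.7 ± 2.94 FPKM in WT with IL-33 (-2.63 ± 0.33, adjusted p = 0.000657). The call of Rhbdf2 was lost without WT library 1 or 2 with IL-33 or STAT3-KO library 1 with IL-33.

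Markers of other cells moved with the groups, and their part in the values of the cytokines and receptors was not tested. The summed FPKM of the macrophage and monocyte markers was 3.23 to 6.74 in STAT3-KO with IL-33, 5.87 to 6.78 in WT with IL-33, 0.595 to 2.66 in STAT3-KO control and 0.312 to 1.52 in WT control. Of 8 listed, 5 were in the table and 1, Cd68, passed the filter, and Lyz2 was at 0 in 7 of 8 libraries. The B cell sum was 19.6 to 21.9 in STAT3-KO with IL-33, 13.1 to 13.9 in WT with IL-33, 3.27 to 4.13 in STAT3-KO control and 7.92 to 8.15 in WT control. It came mostly from Cd79b, with 2 of 5 markers in the table. The mast cell and basophil sum was 7.72 to 8.25 in STAT3-KO with IL-33, 136 to 164.5 in WT with IL-33, 142.4 to 171.2 in STAT3-KO control and 330.2 to 337.4 in WT control, with 4 of 7 in the table. Mcpt8, a basophil protease, stood at 92.8 and 113.5 FPKM in WT with IL-33, the group with the highest Il10 and Il24, and at 0.246 or less in the other 6 libraries. Cpa3 led the sum in those other libraries, followed by Kit in the controls. Unlike Mcpt8, Cpa3 was lower in WT with IL-33, at 34.6 and 41.8 FPKM, than in WT control, at 325.9 and 298.9 FPKM. Kit was lower there too. Hdc, also on this list, stood at 0.118 and 0.385 FPKM in WT with IL-33 and at 0.513 and 0.0198 FPKM in WT control. Fcer1a, Ms4a2 and Tpsb2, the rest of the list, were not in the table. The NK cell and ILC1 sum was 4.44 to 4.98 in STAT3-KO with IL-33, 2.51 to 2.61 in WT with IL-33, 26.7 to 29.3 in STAT3-KO control and 8.78 to 10.5 in WT control. Tbx21 led it in the 4 STAT3-KO libraries and Prf1 in the 4 WT libraries. The T cell sum lay between 4.27 and 9.35 in all libraries, mostly from Cd3g, and Cd3e stayed at or below 0.259. The dendritic cell sum was 4.88 to 5.56 in STAT3-KO with IL-33, 5.34 to 7.28 in WT with IL-33, 2.30 to 3.10 in STAT3-KO control and 3.07 to 3.24 in WT control. The ILC3 sum was 0.792 to 0.863 in STAT3-KO with IL-33, 0.259 to 0.597 in WT with IL-33, 2.26 to 2.56 in STAT3-KO control and 3.83 to 4.52 in WT control. The granulocyte sum was at most 0.907, and the epithelial, stromal and endothelial sum was 21.2 to 31.3, led by Pecam1.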

How the data were processed

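RNA of 8 libraries, 2 in each of 4 groups, was measured by sequencing. The values in the deposited table are FPKM, 1 for each gene in each library, made by the authors with Bowtie2 and RSEM on GRCm38, per the submitters' processing notes, whose versions, annotation and strand setting are not given in the sources used here. Overlapping and antisense genes therefore cannot be told apart. Positions and exon lengths came from GENCODE M21, which holds 22041 of the 22075 identifiers, and promoter sequences from RefSeq (GRCm38.p6). FPKM times exon length gave whole reads (within 0.02) for 93.4% to 94.6% of values up to 100 reads, and from that the depth.

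The 11877 genes that reached 1 FPKM in 2 or more libraries were tested as log2(FPKM + 1), the pseudocount being 1. All 8 libraries entered 1 linear model with a mean for each group in limma 3.58.1 (R 4.3.3; eBayes with trend, 4 residual and 4.46 prior degrees of freedom), two-sided, with Benjamini-Hochberg adjustment over all tested genes in each of 5 comparisons and a threshold of 0.05. The script was tested on simulated data. Tables used pandas 2.3.3 and numpy 2.4.6, and figures matplotlib 3.10.9, under Python 3.11.15.

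The 8 genes, the 7 gene lists and the 10 marker lists were chosen with earlier results of these data known. Named genes were the 8, Stat3, the 3 closest genes of each tested one by Pearson's r with a group mean of at least 5 FPKM (unnamed models left out), and up to 4 called members of smallest p per list and comparison. Alternatives were pseudocounts of 0.1 and 0.5, no or a stricter filter, median-of-ratios rescaling, no trend, the libraries of a comparison alone, a replicate block, each library left out in turn and the length trend removed.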

Additional observations from a re-analysis of the deposited data

Results flagged for a closer look

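The response to IL-33 differed between STAT3-KO and WT for 3 of the 6 tested cytokine and receptor genes, by limma's test of the difference itself, beside 15.1% of all tested genes, 6.72% higher and 8.43% lower. Il10 differed by -1.12 on the log2(FPKM + 1) scale (adjusted p = 0.049), a call that 12 of 16 alternatives did not keep. Il24 differed by -2.34 (adjusted p = 0.0022), the larger of the 2 shortfalls in STAT3-KO, and both STAT3-KO libraries with IL-33 lay below both WT libraries with IL-33. Lif differed by 1.10 (adjusted p = 0.00627), with both STAT3-KO libraries higher with IL-33 than without and both WT libraries lower.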

How the results depend on the processing

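Over all 5 comparisons, the 6 tested genes were recomputed in 502 cases, of which 460 kept direction and call, 32 lost the call, 1 gained it and 9 changed sign. The sign changes concerned values that were not called. Il6 between control groups was -0.317 without STAT3-KO control library 2, and ranged up to 0.472 over the omissions of 1 library. Il10rb between control groups was 0.0386 without WT control library 1 and 0.0312 without STAT3-KO control library 1, and reached -0.144 in the other direction. Between the IL-33 groups Il10rb was -0.0238 without WT library 2, -0.0892 without STAT3-KO library 2 and -0.0322 with the length trend removed, a setting chosen after seeing the data, and reached 0.125 at most. Its difference between responses was -0.0207 without WT control library 1, -0.0134 without STAT3-KO control library 1 and -0.0366 without STAT3-KO library 2 with IL-33, and at most 0.177. The cause was not tested.

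Leaving out 1 library at a time, 4 to 6 of the 8 genes were called with IL-33 in STAT3-KO, 3 to 5 with IL-33 in WT, 4 to 5 between genotypes with IL-33, 0 to 1 between control groups and 2 to 3 for the difference between responses. Of all genes, 4245 to 6244 were then called with IL-33 in STAT3-KO (6063 with all libraries), 2528 to 4344 with IL-33 in WT (4285), 2141 to 4085 between genotypes with IL-33 (3876), 1 to 43 between control groups (55) and 857 to 2048 for the difference (1799). The counts fell to 7 between control groups with those libraries alone and to 34 with a pseudocount of 0.1, and to 1149 for the difference without a filter. Between control groups, 0 of the 8 genes were called without a filter, without a trend of the prior variance, or with the control libraries alone.

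Rescaling moved the split of all called genes with IL-33 to 3161 higher and 2742 lower in STAT3-KO (2425 and 3638 as deposited) and to 2312 and 1867 in WT (1724 and 2561 as deposited). A replicate block gave 6, 5, 5, 1 and 2 of the 8 genes, and 6015, 4271, 3813, 37 and 1827 genes, in the order used for the omissions above. The loss was that of Il10 for the difference (adjusted p = 0.0604). Same-numbered libraries are not said to share a mouse or day, and their deviations correlated by only -0.062 to 0.045. Depth limits Il6ra, Il6st and the control values of Il10 and Il24, which rest on few reads.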
